A study of Mus musculus with 18 samples.

Results

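The genes described here are the receptors of the interferons, the kinases bound to them and the feedback inhibitors of those kinases: Ifnar1 (ENSMUSG00000022967), Ifnar2 (ENSMUSG00000022971), Ifngr1 (ENSMUSG00000020009), Ifngr2 (ENSMUSG00000022965), Jak1 (ENSMUSG00000028530), Tyk2 (ENSMUSG00000032175), Socs1 (ENSMUSG00000038037) and Socs3 (ENSMUSG00000053113). They were taken by gene name from the table of counts, where each name belonged to 1 gene, and they are 8 of 57180 genes. All 8 passed the filter on low counts that left 14263 genes for testing. RNA was sequenced from the mouse fibroblast line L929, labelled as wild type, in 6 groups of 3 independent cultures. The Mock group is labelled DMSO, the AOA group received 0.5 mM aminooxyacetic acid (AOA, an inhibitor of aminotransferases) with a pretreatment of 1 h, and the AOA+Asp group received AOA with 20 mM aspartate. The other 3 groups had the same additions and also received, by transfection for 6 h, 0.5 µg/ml of DNA from herring testis (HT-DNA), which the cytosolic sensor cGAS binds: HT-DNA, HT-DNA+AOA and HT-DNA+AOA+Asp. Aspartate was never given without AOA. The labels name Lipofectamine as the transfection reagent and do not say whether the groups without HT-DNA received it, so HT-DNA and transfection cannot be told apart.

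Type I interferons bind a receptor made of IFNAR1 and IFNAR2, and interferon gamma binds one made of IFNGR1 and IFNGR2. TYK2 is attached to IFNAR1, and JAK1 to IFNAR2 and IFNGR1. Once the ligand brings the chains together, the kinases phosphorylate STAT proteins, which enter the nucleus and switch on interferon-stimulated genes. Among the genes so induced are Socs1 and Socs3, whose proteins return to the receptors and block the kinases. SOCS1 acts mainly on the interferon receptors, and SOCS3 acts mainly on receptors that share the chain gp130, such as the receptor of IL-6.

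The promoters of both inhibitors are shown because Socs1 and Socs3 had the largest differences between groups and because each holds a match to a short sequence named below. All 8 genes had a promoter in RefSeq (build GRCm38.p6). The 250 bases before the annotated start were searched on both strands for a pair of GAAA separated by 2 bases of any kind, the core of the interferon-stimulated response element, and for TTCNNNGAA, the palindrome bound by STAT dimers. In Socs1 (chr16:10785537-10785786, minus strand) the first motif occurred at 2 overlapping places, from -83 to -74 and from -77 to -68 relative to the start. They are the capitals in this sequence, which runs 5′ to 3′ up to the base before the start.
Socs1 promoter: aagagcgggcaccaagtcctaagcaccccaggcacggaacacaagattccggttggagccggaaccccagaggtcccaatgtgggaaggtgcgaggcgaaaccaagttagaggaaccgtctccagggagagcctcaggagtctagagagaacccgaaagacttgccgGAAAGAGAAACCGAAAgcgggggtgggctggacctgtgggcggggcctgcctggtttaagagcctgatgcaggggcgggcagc
In Socs3 (chr11:117969502-117969531, minus strand, the stretch shown) the second motif occurred from -154 to -146, again in capitals.
Socs3 promoter, part: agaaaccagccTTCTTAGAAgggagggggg
Of 27025 promoters searched in the same way, 3.04% held the spaced GAAA pair, 0.2% held it at 2 or more places, and 7.18% held TTCNNNGAA. Ifnar2 also held TTCNNNGAA, from -214 to -206, and neither sequence was found in that window of Ifnar1, Ifngr1, Ifngr2, Jak1 or Tyk2. These matches describe the letters only, and binding was not measured here.

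The libraries held 17901605 to 24057343 estimated counts on genes (median 20385838). Levels are given as CPM, the usual measure of a gene's counts relative to library size, after scaling by the TMM method, and a gene was called where edgeR's quasi-likelihood test gave a Benjamini-Hochberg adjusted p under 0.05 over all genes tested. The 3 libraries of HT-DNA+AOA were less alike than those of any other group, with a median absolute log2 difference between 2 libraries of 0.229 to 0.402 (0.0826 to 0.172 in the other groups). Of 10 fibroblast markers, 7 had a median of at least 10 CPM, among them Vim at 2447 CPM and Col1a1 at 143.0 CPM, while Thy1, Dcn and Lum were under 1 CPM in every library. The 5 immune, 3 epithelial and 2 endothelial markers were all under 1 CPM in every library.

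All 8 genes were transcribed in every group. Compared per kb of exon (lengths from GENCODE vM21, which may not be the authors' release), Jak1 was the highest, with a mean over the libraries of 24.1 CPM per kb. Socs3 (10.3 CPM per kb), Ifngr2 (9.42), Ifnar1 (7.54) and Ifnar2 (7.29) formed a middle range. Ifngr1 (3.92 CPM per kb) and Tyk2 (3.09) were lower, and Socs1 was the lowest at 0.896. In this mean over all libraries the chains of the type I receptor were at similar levels per kb, while Ifngr2 was above Ifngr1 and Jak1 above Tyk2. The order of the type I chains differed between groups. Ifnar1 was at 8.46 and Ifnar2 at 6.46 CPM per kb in Mock, but at 5.82 and 8.16 in HT-DNA+AOA. Socs1 rested on 26 to 106 counts per library, where counting error alone is 9.71% to 19.6%, and Jak1 on 1987 to 5120 counts, where it is 1.4% to 2.24%.

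**Figure D1:**
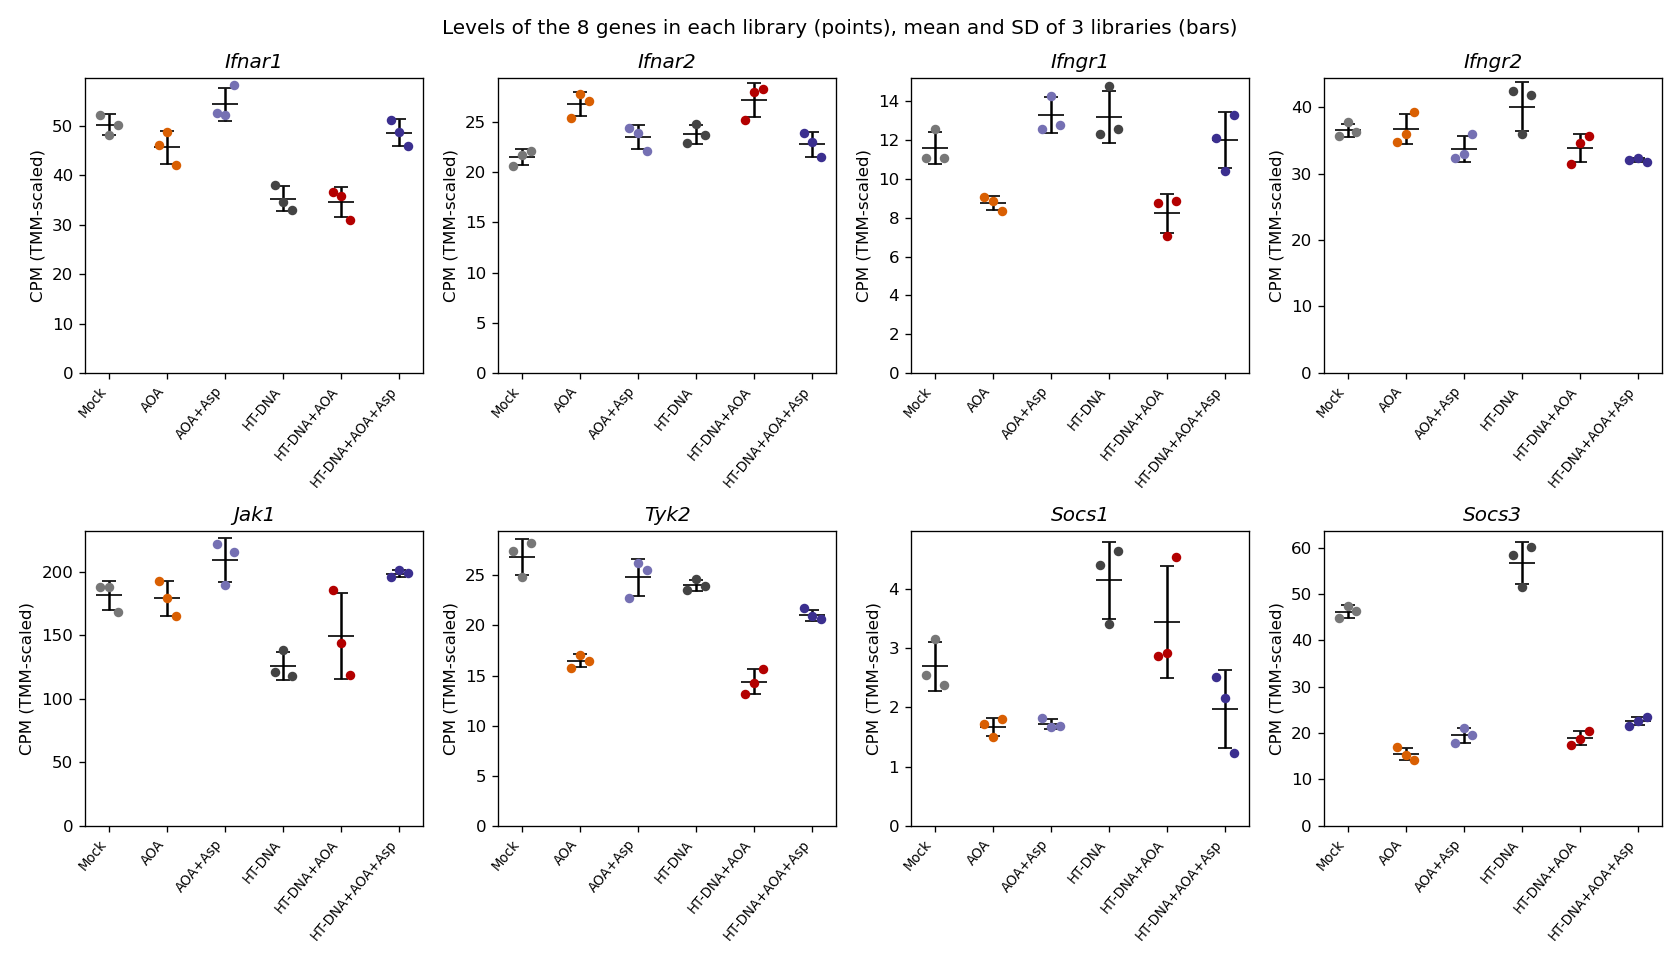
Level of each of the 8 genes (y axis, TMM-scaled CPM, from 0) in the 6 groups (x axis). Points are the 3 libraries of a group, and bars are their mean and SD. Socs3 is at 44.8 to 60.1 CPM in the 6 libraries without AOA and at 14.3 to 23.5 CPM in the 12 libraries with it, with or without aspartate, whereas Tyk2 is low in the AOA and HT-DNA+AOA libraries and higher in those that also received aspartate.

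Socs3, the inhibitor of gp130-linked signaling, had the largest change of the 8 genes. Its level was 44.8, 47.5 and 46.4 CPM in the Mock libraries, 16.9, 15.3 and 14.3 CPM with AOA, and 17.8, 21.2 and 19.6 CPM with AOA and aspartate. In HT-DNA–transfected cells it was 58.3, 51.5 and 60.1 CPM without AOA, 17.4, 18.7 and 20.5 CPM with AOA, and 21.6, 22.6 and 23.5 CPM with AOA and aspartate. Every library that received AOA was thus below every library that did not. AOA lowered Socs3 2.98-fold without HT-DNA (log2 fold change -1.58, standard error 0.09, edgeR adjusted p = 1.67e-10) and 3.01-fold with it (log2 fold change -1.59, standard error 0.0889, adjusted p = 9.01e-11). The AOA effect with HT-DNA minus that without it was -0.01 on the log2 scale, with a 95% interval of -0.26 to 0.23 computed from its standard error. In bulk RNA, a gene lowered in all cells and a gene lost from some of them cannot be told apart.

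Aspartate returned only a small part of the Socs3 level. Its effect on Socs3 in AOA-treated cells was a log2 fold change of 0.33 with a standard error of 0.0923 (edgeR adjusted p = 0.00645). The rise in HT-DNA+AOA cells was 0.26 (standard error 0.091, adjusted p = 0.0234), and it lost significance (adjusted p = 0.0531 to 0.0774) when HT-DNA+AOA library 1 or 2 or HT-DNA+AOA+Asp library 2 or 3 was left out, with no filter on low counts (0.0534) and with only those 6 libraries fitted (0.0908). With aspartate present, Socs3 remained 2.37-fold below Mock (log2 fold change -1.24, adjusted p = 2.57e-08) and 2.51-fold below HT-DNA (-1.32, adjusted p = 1.62e-08). Of the log2 change with AOA, 78.9% remained without HT-DNA and 83.4% with it. HT-DNA alone raised Socs3 by 0.29 (standard error 0.0836, adjusted p = 0.00775), and this call was lost when libraries were scaled by their totals in place of TMM (0.18, adjusted p = 0.0638). The HT-DNA effect in AOA-treated cells was 0.28 and missed the threshold (adjusted p = 0.0538), although it passed in 5 of 13 alternatives, among them DESeq2 (adjusted p = 0.027) and the fits without AOA library 1 (0.0453) or HT-DNA+AOA library 1 (0.0157).

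Socs1, the inhibitor of the interferon receptors, was lower with AOA and higher with HT-DNA. Its level was 2.54, 3.15 and 2.37 CPM in Mock, 1.71, 1.5 and 1.8 CPM with AOA, and 1.82, 1.66 and 1.68 CPM with AOA and aspartate. With HT-DNA it was 4.39, 3.41 and 4.63 CPM, with HT-DNA+AOA 2.87, 2.92 and 4.53 CPM, and with HT-DNA+AOA+Asp 2.51, 2.16 and 1.23 CPM. The HT-DNA libraries were all above the Mock libraries, and the HT-DNA+AOA libraries overlapped both. Socs1 rose with HT-DNA, with a log2 fold change of 0.62 and a standard error of 0.221 (edgeR adjusted p = 0.0264). It rose more than 2-fold with HT-DNA in AOA-treated cells (2.06-fold, log2 fold change 1.04, standard error 0.242, adjusted p = 0.007), but not detectably in cells that also received aspartate (0.19, 95% interval -0.29 to 0.68). Aspartate lowered Socs1 in HT-DNA+AOA cells (log2 fold change -0.80, standard error 0.236, adjusted p = 0.0096), which left it 2.1-fold below HT-DNA alone (log2 fold change -1.07, adjusted p = 0.00126).

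With AOA alone Socs1 fell (log2 fold change -0.69, standard error 0.243, edgeR adjusted p = 0.0261), and the AOA effect in HT-DNA–transfected cells was -0.28 (adjusted p = 0.33). The aspartate effect on Socs1 in AOA-treated cells without HT-DNA was 0.05 (95% interval -0.45 to 0.55). All AOA+Asp libraries were below those of Mock, but this difference was not called (-0.64, edgeR adjusted p = 0.121). It was called when only those 6 libraries were fitted (-0.65, adjusted p = 0.0406). Several of the Socs1 calls rested on single libraries. The fall with AOA was not called without Mock library 2 or without AOA library 1 or 2 (adjusted p = 0.0536 to 0.111). The rise with HT-DNA was not called without library 1 or 3 of either group (adjusted p = 0.0778 to 0.103) or with library totals in place of TMM (0.51, adjusted p = 0.0589). The fall with aspartate was not called without library 3 of either group (adjusted p = 0.062 to 0.0743). When only the 6 libraries compared were fitted, neither the fall with aspartate in HT-DNA+AOA cells (adjusted p = 0.0731) nor the rise with HT-DNA in AOA-treated cells (adjusted p = 0.0662) was called. The aspartate effect with HT-DNA minus that without it was -0.85 (unadjusted p = 0.0246, adjusted p = 0.36).

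Tyk2, the kinase on IFNAR1, fell with AOA and was higher again with aspartate. Its level was 27.4, 24.8 and 28.2 CPM in Mock, 15.8, 17.1 and 16.5 CPM with AOA, and 22.7, 26.2 and 25.5 CPM with AOA and aspartate. With HT-DNA it was 23.5, 24.6 and 23.9 CPM, with HT-DNA+AOA 13.2, 14.3 and 15.7 CPM, and with HT-DNA+AOA+Asp 21.7, 20.9 and 20.6 CPM. No library of AOA or HT-DNA+AOA reached the lowest library of the other 4 groups. The fall was 1.63-fold without HT-DNA (log2 fold change -0.70, standard error 0.0831, edgeR adjusted p = 1.79e-06) and 1.67-fold with it (-0.74, standard error 0.085, adjusted p = 8.95e-07). Aspartate raised Tyk2 by 0.59 (adjusted p = 1.6e-05) and 0.55 (adjusted p = 4e-05). With aspartate, 16% of the log2 change with AOA remained without HT-DNA and 25.5% with it, and neither remainder was called (adjusted p = 0.458 and 0.0663). In the fit of only the 6 libraries compared, the remainder with HT-DNA passed the threshold (-0.18, adjusted p = 0.0404). The difference of the AOA effects was -0.04 (95% interval -0.27 to 0.19). HT-DNA alone gave -0.16 (adjusted p = 0.11), and -0.27 (adjusted p = 0.00722) with library totals in place of TMM. In GENCODE vM21, 8.07% of the exon bases of Tyk2 lie opposite the antisense gene 1700084C06Rik, which had at most 3 counts in a library.

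Jak1, the kinase shared by both receptors, had another pattern and fell with HT-DNA. Its level was 187.9, 188.1 and 168.5 CPM in Mock and 121.1, 138.5 and 117.8 CPM with HT-DNA. This was a fall of 1.44-fold (log2 fold change -0.53, standard error 0.117, edgeR adjusted p = 0.00135), with no overlap between the groups. AOA alone gave 192.5, 179.1 and 165.4 CPM, within the Mock range or close to it (log2 fold change -0.02, 95% interval -0.25 to 0.21), and AOA with aspartate gave 222.0, 189.5 and 215.5 CPM. The HT-DNA+AOA libraries lay far apart at 185.6, 144.0 and 118.4 CPM, while those of HT-DNA+AOA+Asp were close together at 195.6, 201.3 and 198.7 CPM. Jak1 was thus 1.58-fold higher with HT-DNA+AOA+Asp than with HT-DNA (log2 fold change 0.66, standard error 0.117, adjusted p = 0.000305). Aspartate raised it by 0.41 in HT-DNA+AOA cells (adjusted p = 0.00738), or by the same amount at adjusted p = 0.0673 when only those 6 libraries were fitted.

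The Jak1 comparisons with the HT-DNA+AOA group turned on single libraries of it. Its difference from HT-DNA was 0.25 and not called (edgeR adjusted p = 0.0925), but it was 0.39 (adjusted p = 0.00233) without HT-DNA+AOA library 3 and was also called with no filter on low counts (0.23, adjusted p = 0.0435). The difference of the AOA effects likewise went from 0.27 (adjusted p = 0.267) to 0.41 (adjusted p = 0.0193) without that library. The difference between HT-DNA+AOA and AOA was -0.26 (adjusted p = 0.158), and it was called without HT-DNA+AOA library 1 (-0.45, adjusted p = 0.000935) and with no filter (adjusted p = 0.0434).

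Ifnar1, the chain of the type I receptor that carries TYK2, moved with HT-DNA in the same direction as Jak1. Its level was 52.3, 48.2 and 50.3 CPM in Mock, 46.1, 48.8 and 42.2 CPM with AOA, and 52.6, 52.3 and 58.3 CPM with AOA and aspartate. With HT-DNA it was 38.1, 34.7 and 33 CPM, with HT-DNA+AOA 36.7, 35.9 and 31 CPM, and with HT-DNA+AOA+Asp 51.2, 48.9 and 45.9 CPM. The 6 libraries of HT-DNA and HT-DNA+AOA were below all others. HT-DNA lowered Ifnar1 1.42-fold (log2 fold change -0.51, standard error 0.0833, edgeR adjusted p = 0.000111), and in AOA-treated cells 1.32-fold (-0.40, adjusted p = 0.00321, or 0.148 with only those 6 libraries fitted). In cells with AOA and aspartate the HT-DNA effect was -0.16 and was not called (adjusted p = 0.363). Aspartate raised Ifnar1 by 0.49 in HT-DNA+AOA cells (adjusted p = 0.000106), to a level 1.38-fold above HT-DNA (0.46, adjusted p = 0.000338). The rise without HT-DNA was 0.25 (adjusted p = 0.0184), and was not called without AOA library 3 (adjusted p = 0.0912) or AOA+Asp library 3 (adjusted p = 0.0988). The effect of AOA alone was -0.14 (adjusted p = 0.19), and -0.27 (adjusted p = 0.0215) with library totals in place of TMM, a scaling that shifted the median of all genes to -0.12.

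Ifnar2, the chain that carries JAK1, moved little and rose with AOA. Its level was 20.6, 21.7 and 22.1 CPM in Mock, 25.4, 27.8 and 27.1 CPM with AOA, and 24.4, 23.9 and 22.1 CPM with AOA and aspartate. With HT-DNA it was 22.9, 24.8 and 23.7 CPM, with HT-DNA+AOA 25.2, 28 and 28.3 CPM, and with HT-DNA+AOA+Asp 23.9, 23 and 21.5 CPM. The libraries of AOA and HT-DNA+AOA were above all others. The rise with AOA was 1.25-fold without HT-DNA (log2 fold change 0.32, standard error 0.0758, edgeR adjusted p = 0.00216), and this call held in all 13 alternatives. The rise in HT-DNA–transfected cells (0.19, adjusted p = 0.0481) and the fall with aspartate without HT-DNA (-0.19, adjusted p = 0.0461) were each lost in 9 of 13 alternatives. For the rise these were among others the fits without any 1 HT-DNA library or without HT-DNA+AOA library 2 or 3 (adjusted p = 0.0549 to 0.152), and for the fall those without AOA library 2 or 3 or any 1 AOA+Asp library (adjusted p = 0.051 to 0.175). The fall with aspartate in HT-DNA+AOA cells (-0.25, adjusted p = 0.0108) was lost without HT-DNA+AOA+Asp library 3 (adjusted p = 0.0594), with library totals (0.0702), with no filter on low counts (0.1) and with only those 6 libraries (0.0829). In GENCODE vM21, 9.46% of the exon bases of Ifnar2 are shared with Gm21970 on the same strand, a gene with at most 75 counts in a library.

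Ifngr1, the chain of the interferon gamma receptor that binds the ligand, fell with AOA and rose with aspartate, as Tyk2 did. Its level was 11.1, 12.6 and 11.1 CPM in Mock, 9.05, 8.88 and 8.37 CPM with AOA, and 12.6, 14.3 and 12.8 CPM with AOA and aspartate. With HT-DNA it was 12.3, 14.8 and 12.6 CPM, with HT-DNA+AOA 8.77, 7.08 and 8.88 CPM, and with HT-DNA+AOA+Asp 12.1, 10.4 and 13.3 CPM. The libraries of AOA and HT-DNA+AOA were again below all others. The fall was 1.32-fold without HT-DNA (log2 fold change -0.40, standard error 0.115, edgeR adjusted p = 0.00781) and 1.61-fold with it (-0.68, standard error 0.116, adjusted p = 8.64e-05). Aspartate raised Ifngr1 by 0.59 (adjusted p = 0.000371) and 0.54 (adjusted p = 0.001). The difference of the AOA effects was -0.28 (95% interval -0.60 to 0.04). All 4 calls held in every alternative tried.

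Ifngr2, its partner chain, moved about as little as Ifnar2. The highest group mean was 1.25 times the lowest for Ifngr2 and 1.26 times for Ifnar2. The level of Ifngr2 was 35.7, 37.7 and 36.2 CPM in Mock, 34.7, 36 and 39.2 CPM with AOA, and 32.3, 32.9 and 35.9 CPM with AOA and aspartate. With HT-DNA it was 42.4, 35.9 and 41.9 CPM, with HT-DNA+AOA 31.5, 34.6 and 35.6 CPM, and with HT-DNA+AOA+Asp 32, 32.4 and 31.8 CPM. Of the 9 comparisons, only those of HT-DNA+AOA and HT-DNA+AOA+Asp with HT-DNA were called. Ifngr2 was 1.25-fold lower with HT-DNA+AOA+Asp than with HT-DNA (log2 fold change -0.32, standard error 0.0785, edgeR adjusted p = 0.00323). It was 1.18-fold lower with HT-DNA+AOA (-0.24, adjusted p = 0.0177), a call lost without HT-DNA library 1 or 3 or HT-DNA+AOA library 1 (adjusted p = 0.0671 to 0.0813), with no filter on low counts (0.0516) and with only those 6 libraries (0.134). The HT-DNA effect itself was 0.13 (adjusted p = 0.168), and passed without HT-DNA library 2 (0.21, adjusted p = 0.0493). Ifnar2, Il10rb, Ifnar1 and Ifngr2 follow each other in this order on chromosome 16. Il10rb, which encodes a chain of the IL-10 and interferon lambda receptors, was called in none of the 9 comparisons of 2 groups with all libraries. Without HT-DNA+AOA+Asp library 1 it was called lower in that group than in HT-DNA+AOA (-0.40, adjusted p = 0.0079, from -0.21), HT-DNA (-0.31, adjusted p = 0.031, from -0.12) and AOA+Asp (-0.47, adjusted p = 0.0273, from -0.28).

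**Figure D2:**
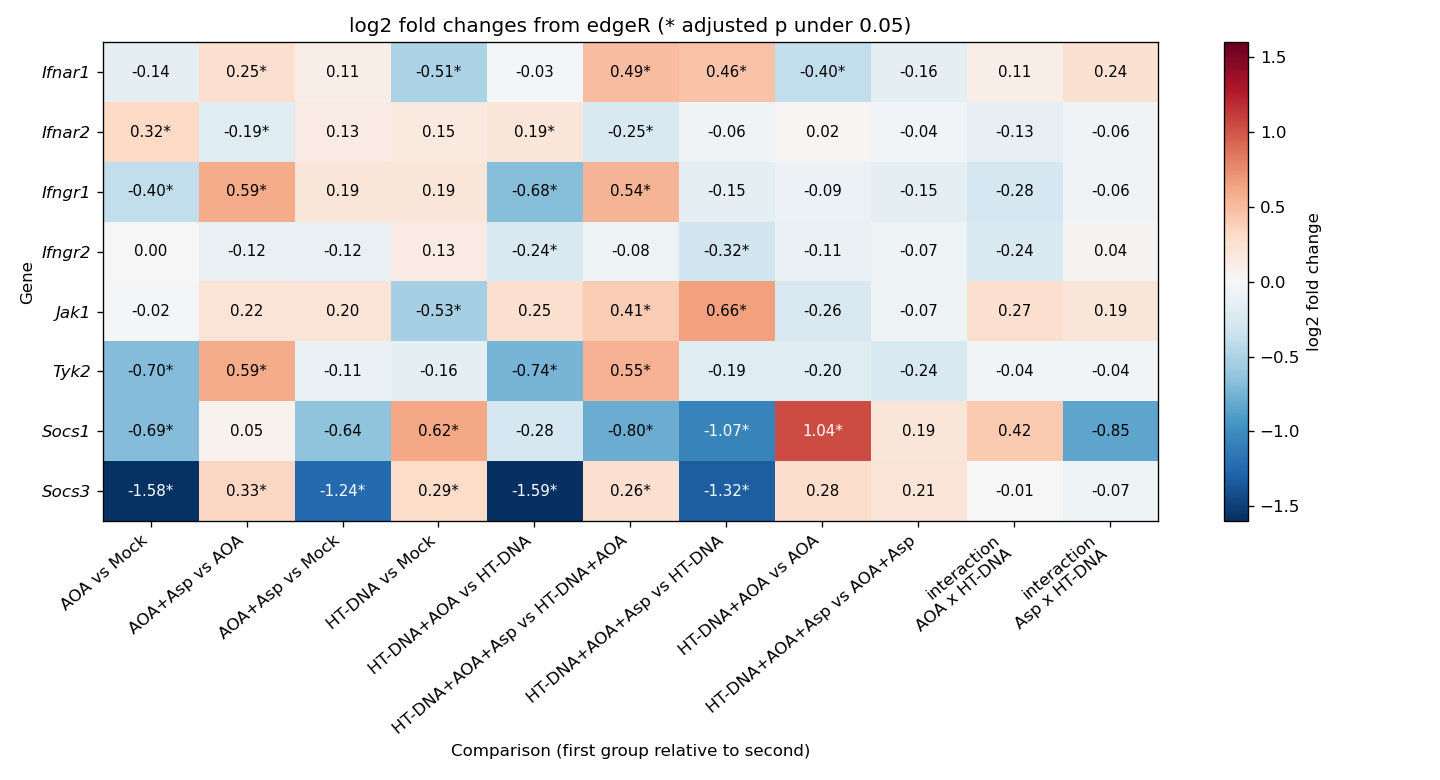
log2 fold changes of the 8 genes (rows) in the 9 comparisons of 2 groups and the 2 interactions (columns, first group relative to second), in color and in digits, with an asterisk where the edgeR adjusted p was under 0.05. The darkest cells are Socs3 with AOA, at -1.58 without HT-DNA and -1.59 with it, and no interaction is called.

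Seen by comparison, the counts of genes called were read against the share called among all genes tested, which was large here. AOA relative to Mock called 5 of 8 (Ifnar2 higher and Ifngr1, Tyk2, Socs1 and Socs3 lower), beside 45.7% of all genes (22.4% higher and 23.2% lower). Aspartate added to AOA called 5 (Ifnar1, Ifngr1, Tyk2 and Socs3 higher and Ifnar2 lower), beside 46.3% (23.5% higher and 22.8% lower). AOA with aspartate relative to Mock called only Socs3, which was lower, beside 6.47% (2.52% higher and 3.95% lower). HT-DNA relative to Mock called 4 (Socs1 and Socs3 higher and Ifnar1 and Jak1 lower), beside 48.2% (24.2% higher and 24% lower). These counts describe 8 chosen genes, and nothing particular to them is read from a share near that of all genes.

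In HT-DNA–transfected cells, AOA called 5 genes (Ifnar2 higher and Ifngr1, Ifngr2, Tyk2 and Socs3 lower), beside 45.4% of all genes (22.8% higher and 22.7% lower). Aspartate added to HT-DNA and AOA called 7, beside 47.7% (23.7% higher and 23.9% lower). Ifnar1, Ifngr1, Jak1, Tyk2 and Socs3 were higher, Ifnar2 and Socs1 were lower, and Ifngr2 was not called (-0.08). Between HT-DNA+AOA+Asp and HT-DNA, 5 were called (Ifnar1 and Jak1 higher and Ifngr2, Socs1 and Socs3 lower), beside 46.6% (23.2% higher and 23.5% lower). The count for aspartate in these cells was 4 without HT-DNA+AOA+Asp library 3. The count for AOA in these cells was 3 without HT-DNA library 1 or 3, and that for aspartate without HT-DNA was 3 without AOA library 3 or AOA+Asp library 3.

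Fewer genes were called for HT-DNA in AOA-treated cells, and fewer again with aspartate, among these 8 and among all genes. HT-DNA in AOA-treated cells called 2 genes (Socs1 higher and Ifnar1 lower), beside 13.4% of all genes (6.46% higher and 6.98% lower), and 4 without HT-DNA+AOA library 1. HT-DNA in cells with AOA and aspartate called none of the 8 with edgeR or DESeq2, beside 3.45% of all genes (1.93% higher and 1.52% lower), and 2 had an unadjusted p under 0.05 (Tyk2 and Socs3). No member was called for the difference of the AOA effects with and without HT-DNA, beside 15.5% of all genes (7.23% higher and 8.26% lower), or for the difference of the aspartate effects, beside 1.05% (0.266% higher and 0.785% lower), with edgeR or DESeq2. A single gene was under 0.05 before adjustment in each, Ifngr2 (-0.24) and Socs1 (-0.85). The count of members called for the difference of the AOA effects was 1 without HT-DNA+AOA library 3, when Jak1 was called. The shares of all genes under 0.05 before adjustment are not given here, so nothing is read from the unadjusted counts.

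The number of genes whose libraries did not overlap between the groups differed from the number called in 5 of the 9 comparisons, most for AOA+Asp against Mock (5 against 1 called), and the shares of all genes were again large. It was 5 of 8 for AOA relative to Mock (59.4% of all genes), 5 for aspartate added to AOA (56.8%), 5 for AOA+Asp against Mock (32.7%) and 6 for HT-DNA against Mock (61.3%). In HT-DNA–transfected cells it was 5 for AOA (44.8%), 7 for aspartate added to AOA (48.8%) and 6 for both relative to HT-DNA (61.1%). It was 4 for HT-DNA in AOA-treated cells (21%) and 3 for HT-DNA in cells with AOA and aspartate (28.5%).

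The ratio of 2 genes within a library does not depend on how libraries are scaled. It was taken for the chains of each receptor, the kinases and the SOCS genes. The ratio of Ifnar1 to Ifnar2 counts was 2.34 ± 0.171 (SD, n = 3) in Mock, 1.71 ± 0.134 with AOA and 2.32 ± 0.268 with AOA and aspartate. It was 1.49 ± 0.151 with HT-DNA, 1.28 ± 0.181 with HT-DNA+AOA and 2.14 ± 0.007 with HT-DNA+AOA+Asp. All 9 libraries of AOA, HT-DNA and HT-DNA+AOA had a ratio of at most 1.81, and all 9 others had at least 2.13. The ratio of Jak1 to Tyk2 counts was 6.81 ± 0.813 in Mock and 5.24 ± 0.363 with HT-DNA, and it was 10.9 ± 1.16 with AOA and 10.6 ± 3.32 with HT-DNA+AOA. With aspartate it was 8.49 ± 1.28 without HT-DNA, and 9.44 ± 0.37 with HT-DNA, where every library was above those of HT-DNA alone. The ratio of Ifngr1 to Ifngr2 was 0.318 ± 0.0138 in Mock, 0.24 ± 0.0242 with AOA and 0.394 ± 0.0391 with AOA and aspartate, with no overlap between these 3 groups. This ratio was 0.334 ± 0.0674 with HT-DNA, 0.244 ± 0.0372 with HT-DNA+AOA and 0.373 ± 0.0481 with HT-DNA+AOA+Asp, and the libraries of the first and last of these overlapped. That of Socs3 to Socs1 was 17.4 ± 2.26 in Mock, 9.34 ± 1.22 with AOA and 11.4 ± 1.49 with AOA and aspartate. It was 13.8 ± 1.15 with HT-DNA, 5.66 ± 0.992 with HT-DNA+AOA and 12.7 ± 5.6 with HT-DNA+AOA+Asp. These ratios are descriptions and were not tested.

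**Figure D3:**
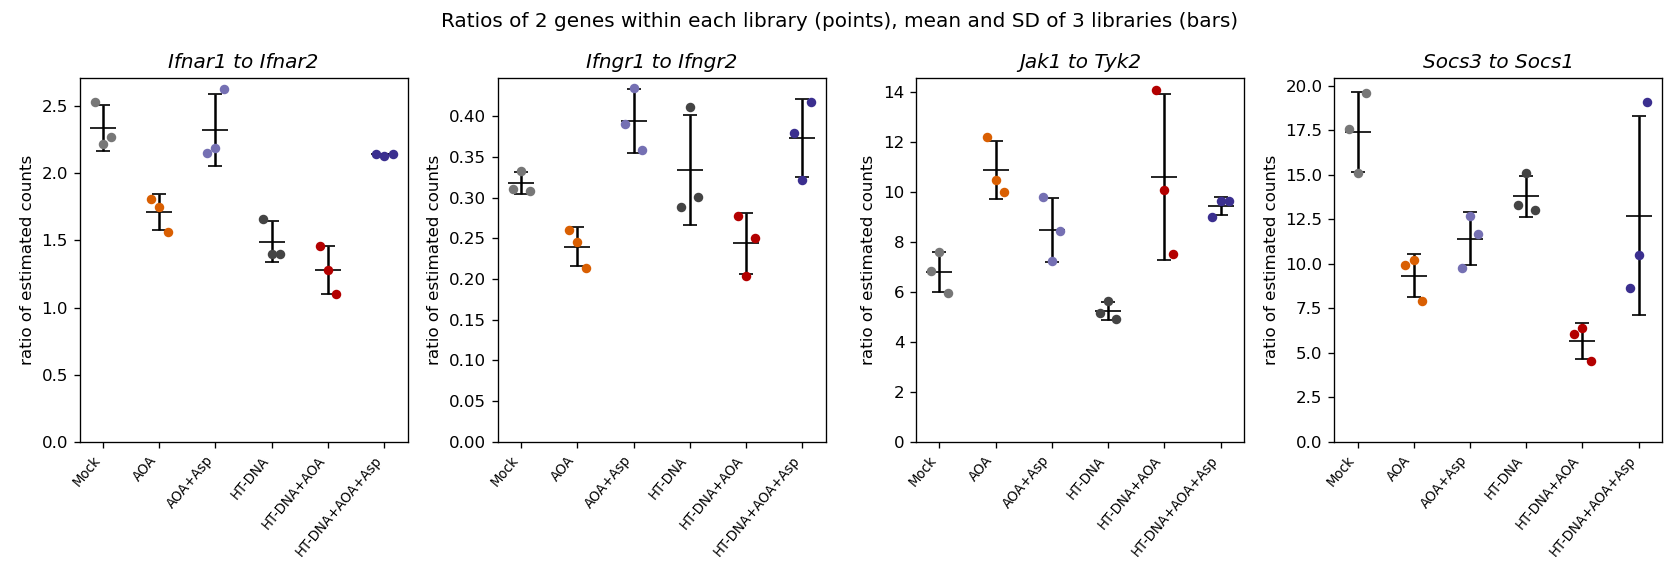
Ratio of the estimated counts of 2 genes within each library (y axis, from 0) for the chains of both receptors, the kinases and the SOCS genes in the 6 groups (x axis). Points are libraries, and bars are the mean and SD of 3. The Ifnar1 to Ifnar2 ratio is at most 1.81 in AOA, HT-DNA and HT-DNA+AOA and at least 2.13 in the other groups.

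The pathway around these genes was read from a list of 62 genes, of which 44 could be tested. AOA relative to Mock called 24 of the 44 (5 higher and 19 lower), beside 45.7% of all genes (22.4% higher and 23.2% lower). HT-DNA relative to Mock called 24 (14 higher and 10 lower), beside 48.2%, and AOA in HT-DNA–transfected cells called 29 (12 higher and 17 lower), beside 45.4%. None of the 12 interferon genes on the list could be tested. Ifnb1, which encodes interferon beta, had 6, 4 and 2 counts in the HT-DNA+AOA libraries, 1 count in a single HT-DNA+AOA+Asp library, and 0 in the other libraries, and a count of 0 allows up to 3 counts. Of the 18 genes not tested, 15 had at most 3 counts in every library. Lif, a ligand of gp130-linked receptors, was at 11.7 CPM in Mock and rose with AOA, by 1.05 without HT-DNA (edgeR adjusted p = 1.14e-06) and by 1.40 with it (adjusted p = 2.05e-08). Of 6 ligands of gp130-linked receptors tested, AOA relative to Mock called 2 (Lif and Il6, both higher), beside 45.7% of all genes. The Il6 call rested on 4 to 13 counts per library and ended without AOA library 3 (1.14, adjusted p = 0.0776). Il6 rose with AOA in HT-DNA–transfected cells, from 0.685 to 6.61 CPM (log2 fold change 3.25, standard error 0.287, adjusted p = 3.07e-08). With AOA and aspartate, the mean levels without HT-DNA were 6.35 CPM for Lif and 0.209 CPM for Il6. In HT-DNA+AOA+Asp they were 7.29 CPM for Lif and 0.797 CPM for Il6.

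Among 10 other receptor genes tested, AOA relative to Mock called 5 (1 higher and 4 lower), beside 45.7% of all genes, and HT-DNA relative to Mock called 6 (3 higher and 3 lower), beside 48.2%. Of 4 parts of the ubiquitin ligase that SOCS proteins recruit, HT-DNA relative to Mock called 3, all higher (24.2% of all genes were higher). For these 4, AOA in HT-DNA–transfected cells called 0 with edgeR or DESeq2 (0 at an unadjusted edgeR p under 0.05), beside 45.4% of all genes with edgeR. Il6st, which encodes gp130, fell with HT-DNA (log2 fold change -0.72, standard error 0.136, edgeR adjusted p = 0.000407) and was 0.65 higher with HT-DNA+AOA+Asp than with HT-DNA (adjusted p = 0.00112). Il6ra, the chain that binds IL-6, fell with AOA by 0.78 (adjusted p = 1.5e-06) and by 0.65 in HT-DNA–transfected cells (adjusted p = 9.55e-06). It was raised by aspartate in both settings, by 0.65 and 0.43.

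Of 8 other JAK and STAT factors tested, all 8 were called for AOA in HT-DNA–transfected cells, 4 higher and 4 lower, beside 45.4% of all genes (22.8% higher and 22.7% lower). Stat2 and Irf9, which act together in the type I interferon signal, rose by 0.99 and 1.42. Jak2, the kinase of the IFNGR2 chain, rose by 1.31, while Stat6, the factor of IL-4 signaling, fell by 0.77 (log2 fold change -0.77, edgeR adjusted p = 2.23e-08). Stat2 had fallen with AOA alone by 0.89 (adjusted p = 2.18e-06), and the difference of its AOA effects was 1.88 (standard error 0.144, adjusted p = 1.08e-06). That difference was between -0.28 and 0.42 for the 8 receptor, kinase and SOCS genes, none of which was called, beside 15.5% of all genes. It was least certain for Socs1 (0.42, standard error 0.328, 95% interval -0.23 to 1.06).

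**Figure D4:**
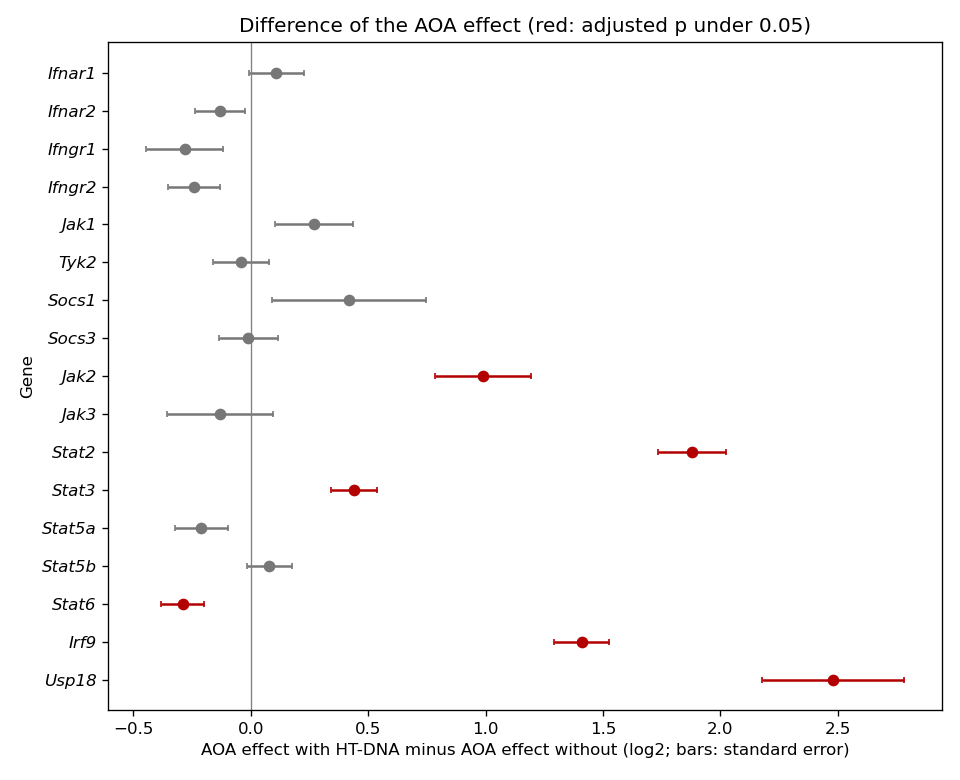
AOA effect with HT-DNA minus AOA effect without it (x axis, log2 scale) for the 8 genes, the other JAK and STAT factors tested and Usp18 (y axis). Points are edgeR estimates, bars are standard errors, and red marks an adjusted p under 0.05. Usp18 (2.48), Stat2 (1.88) and Irf9 (1.41) are on the right, and the 8 genes are between -0.28 and 0.42.

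The 16 other SOCS genes and inhibitors were all tested. AOA relative to Mock called 10 of them, 1 higher (Ptpn2) and 9 lower, beside 45.7% of all genes (22.4% higher and 23.2% lower). Their median log2 fold change was -0.37, and that of all genes tested was 0.02. In HT-DNA–transfected cells AOA called 12, 3 higher and 9 lower, beside 45.4% (22.8% higher and 22.7% lower), with a median of -0.33 against 0.02. The list was chosen with earlier results known, so these counts are descriptions. Aspartate then called 10 without HT-DNA (8 higher and 2 lower), beside 46.3%, and 11 with it (8 higher and 3 lower), beside 47.7%.

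Between AOA+Asp and Mock, only 6.47% of all genes were called. A missing call there does not show a return to the Mock level. Of the 16 inhibitors, 8 had an unadjusted edgeR p under 0.05 in this comparison. The share of all genes under that unadjusted threshold is not given here, so nothing particular to the inhibitors is read from this count. The libraries of 9 of the 16 did not overlap between the groups, beside 32.7% of all genes. Of the 9 inhibitors that fell with AOA, 7 were not called between AOA+Asp and Mock. Socs7, for example, went from 53.7 CPM in Mock to 30.9 CPM with AOA (log2 fold change -0.80, edgeR adjusted p = 1e-07) and 51.6 CPM with AOA and aspartate. Pias3, an inhibitor of STAT3, went from 32.8 to 18.1 CPM (-0.86, adjusted p = 5.61e-08) and to 29.5 CPM. Cish and Sh2b3 were the exceptions and, like Socs3, stayed below Mock with aspartate. Socs1 was also lower in that comparison (-0.64), but was not called. Cish, a SOCS family gene induced by STAT5, was at 4.86, 3.6 and 4.88 CPM in Mock, 0.931, 0.772 and 1.16 CPM with AOA, and 1.12, 1.61 and 1.47 CPM with AOA and aspartate. Sh2b3, which encodes the adaptor LNK, was at 310.0, 311.0 and 299.9 CPM in Mock, 218.0, 198.0 and 178.2 CPM with AOA, and 194.7, 212.5 and 202.5 CPM with AOA and aspartate. In neither gene did the libraries with AOA overlap those of Mock, with or without aspartate.

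The Cish changes relative to Mock were -2.23 with AOA (standard error 0.224, edgeR adjusted p = 2.49e-07) and -1.66 with AOA and aspartate (adjusted p = 5.49e-05). The Sh2b3 changes were -0.63 (standard error 0.0672, adjusted p = 5.1e-07) and -0.59 (adjusted p = 1.5e-05). Relative to HT-DNA, Cish was lower by 1.49 with HT-DNA+AOA (log2 fold change -1.49) and by 1.66 with aspartate (-1.66), and Sh2b3 was at -0.67 and -0.52, all called. Of the 16 inhibitors, 3 were called between AOA+Asp and Mock, beside 6.47% of all genes (2.52% higher and 3.95% lower). They were Cish and Sh2b3, both lower, and Ptpn2, which was higher (0.36). The Ptpn2 call was lost without Mock library 1 or 2 or AOA+Asp library 1 (edgeR adjusted p = 0.0504 to 0.0533). Usp18, an interferon-stimulated gene whose product blocks IFNAR2, had another pattern, at 6.17 ± 0.488 CPM with HT-DNA, 43.3 ± 7.37 with HT-DNA+AOA and 3.98 ± 0.642 with HT-DNA+AOA+Asp (SD, n = 3).

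**Figure D5:**
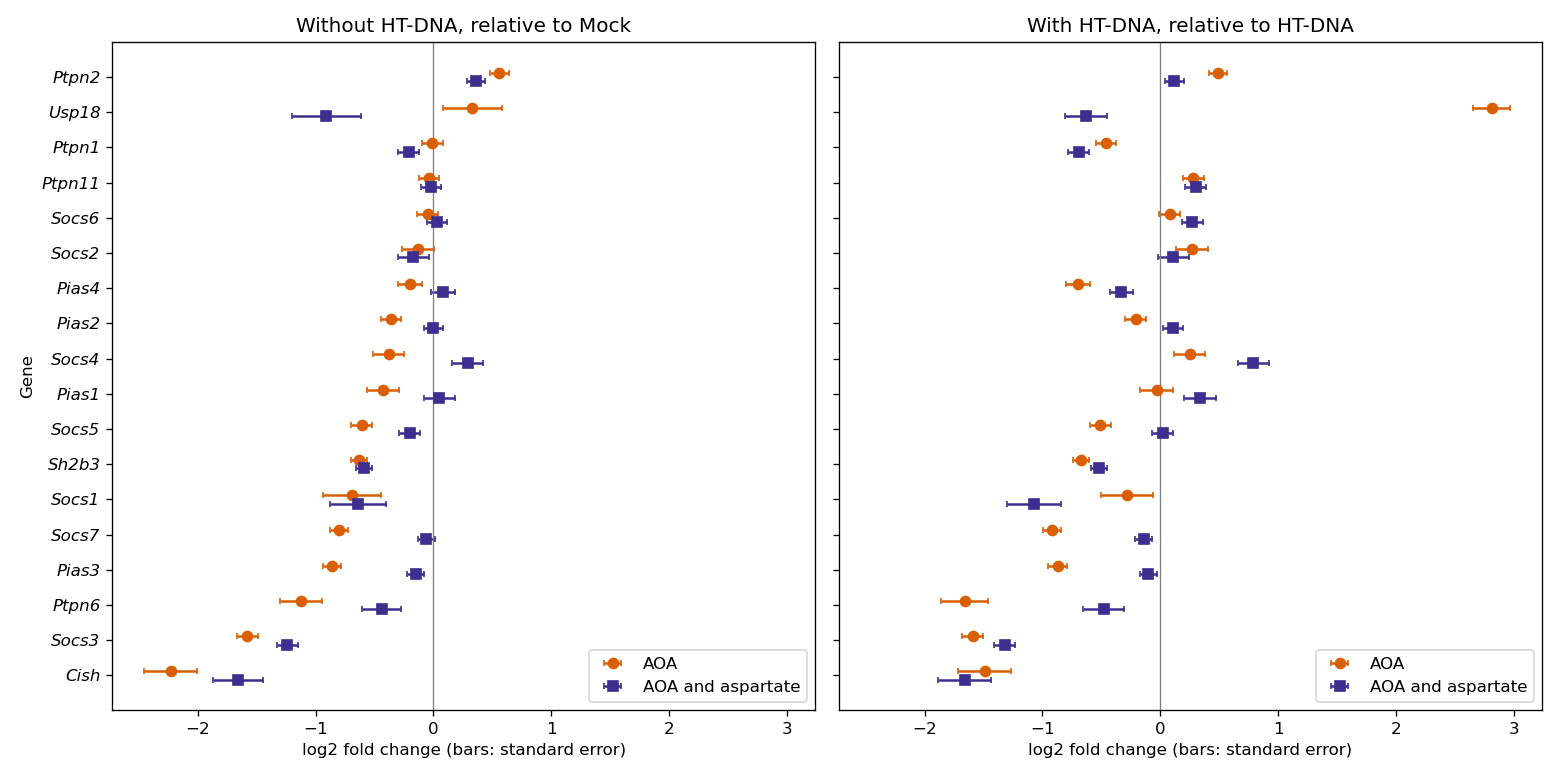
log2 fold changes (x axis, bars are standard errors) of Socs1, Socs3 and the 16 other SOCS genes and inhibitors (y axis) with AOA (circles) and with AOA and aspartate (squares), relative to Mock on the left and to HT-DNA on the right. The squares of Socs7 (-0.06 and -0.14) and Pias3 (-0.15 and -0.10) are near 0. Those of Socs3 (-1.24 and -1.32), Cish (-1.66 and -1.66), Sh2b3 (-0.59 and -0.52) and Socs1 (-0.64, not called, and -1.07) are below 0.

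The genes whose level followed each member most closely were taken from 12042 genes by Pearson's r of log2 CPM over the 18 libraries. Sh2b3, Lynx1 and Mcl1 were closest to Socs3, each with r = 0.98, and Mcl1 encodes a survival protein of the BCL2 family. Tyk2 was followed by Pcgf2, Wdr6 and Frmd8 (each 0.98), and Jak1 by Tcf12, Zzz3 and Tmx1 (each 0.98). Ifnar1 was followed by Edem1 and Sel1l (both 0.97), which serve the degradation of misfolded proteins from the endoplasmic reticulum, and by Zfp664 (0.96). For Ifngr1 the closest were LTO1 (0.94), Sec24d (0.92) and 6330537M06Rik (0.92), and for Ifnar2 Mettl9, Wdr25 and Itfg2 (each 0.91). The values were lower for Ifngr2 (Nab2 0.88, Plcd1 0.87 and Pimreg 0.86) and for Socs1 (Dok1 0.88, Arrdc2 0.88 and Ankrd13a 0.87), and the reason was not tested. With library totals in place of TMM, r was 0.84 for Mettl9, 0.79 for Wdr25, 0.81 for Itfg2, 0.78 for Pimreg and 0.77 for Ankrd13a. The other genes named moved less. The 18 points share 6 treatments, so each r mainly describes the group means, and no test was made.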

How the data were processed

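RNA from 18 cultures of L929 cells was extracted with TRIzol and sequenced by the study's provider. The aligner, counting program, genome build and strand setting are not given in the sources used here. The authors deposited estimated counts (expected counts) of reads per gene without normalization, of which 11.6% were not whole (tolerance 0.001), and these were rounded. The table's group means were not used. In R 4.3.3, edgeR 4.0.16 filtered genes (filterByExpr, minimum count 10, minimum total 15, group size 3), scaled libraries by TMM (factors 0.918 to 1.065) and fitted 1 robust quasi-likelihood model to the 6 groups. Intervals of 95% were taken from the standard errors. A gene was called at a Benjamini-Hochberg adjusted p-value under 0.05. Groups came from the sample labels, and per-library totals are given with the results.

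The members and lists were chosen with earlier results of these data known. Genes named are the 8 members, the 62 genes of the pathway list (a further gene of it is not reported here), and for each member the 3 genes with the highest r among those with a unique symbol and a mean of at least 1 CPM. Gene lengths and overlaps came from GENCODE vM21 and promoters from RefSeq GRCm38.p6. Alternatives were DESeq2 1.42.0, RLE, library totals, 2 other filters, a replicate block, only the libraries compared, and each library left out. The steps were tested on simulated data.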

Additional observations from a re-analysis of the deposited data

Results flagged for a closer look

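No member's effect was called as differing with HT-DNA, while the effects of 12 of the 44 pathway genes tested were, beside 15.5% of all genes. For AOA, the effect with HT-DNA minus that without it was 2.48 for Usp18, 1.88 for Stat2, 1.41 for Irf9, 0.99 for Jak2, 0.85 for Osmr, 0.44 for Stat3 and -0.64 for Il4ra on the log2 scale (edgeR's interaction test, adjusted p under 0.05). These 7 calls held when each library was left out in turn. Il6 (1.78), Socs4 (0.63), Pias4 (-0.50), Ptpn1 (-0.45) and Stat6 (-0.29) were also called, each with single libraries whose removal ended the call. These were any of the 12 libraries but AOA 3 and HT-DNA+AOA 3 for Il6 (adjusted p = 0.061 to 0.115), any but HT-DNA+AOA 3 for Stat6 (0.0516 to 0.0928), and any but AOA 1, HT-DNA 2, HT-DNA+AOA 2 and HT-DNA+AOA 3 for Socs4 (0.0524 to 0.0836). For Pias4 they were each Mock library, AOA 2, HT-DNA 1 and 3 and HT-DNA+AOA 2 (0.0514 to 0.0726), and for Ptpn1 Mock 3, AOA 2, HT-DNA 3 and HT-DNA+AOA 2 (0.0623 to 0.0647).

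The aspartate effect in AOA-treated cells with HT-DNA minus that without it was called for 3 of the 44, beside 1.05% of all genes: Usp18 (-2.20), Stat2 (-1.48) and Irf9 (-1.19). Each had risen in HT-DNA+AOA cells and was lowered by aspartate there.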

How the results depend on the processing

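Of 1240 values of the members under the alternatives, 1171 kept their side of the threshold, 50 calls were lost, 19 were gained and 0 reversed. Some values near 0 that were not called changed sign, such as Ifnar1 for HT-DNA+AOA against HT-DNA (-0.03, range -0.08 to 0.04). Over the pathway list 6385 of 6794 were kept, and 1 reversed, Ghr for HT-DNA+AOA against AOA, at 0.02 with all libraries, -0.47 (edgeR adjusted p = 0.0367) without HT-DNA+AOA library 1 and up to 0.24 without another library. Fitting only the libraries compared called 3 members for AOA+Asp against Mock (1 otherwise), 3 for HT-DNA+AOA against HT-DNA (5), 3 for HT-DNA+AOA+Asp against HT-DNA+AOA (7), 0 for HT-DNA+AOA against AOA (2) and 1 for HT-DNA+AOA+Asp against AOA+Asp (0). For the pathway list it called 15 (8), 4 (12) and 9 (4) genes in AOA+Asp against Mock, HT-DNA+AOA against AOA, and HT-DNA+AOA+Asp against AOA+Asp. Leaving out 1 library at a time gave 3 to 5 members for AOA+Asp against AOA, 3 to 5 for HT-DNA+AOA against HT-DNA, 4 to 7 for HT-DNA+AOA+Asp against HT-DNA+AOA, 2 to 4 for HT-DNA+AOA against AOA and 0 to 1 for the difference of the AOA effects. For the pathway list it gave 4 to 7, 7 to 16 and 7 to 20 genes in AOA+Asp against Mock, HT-DNA+AOA against AOA and the difference of the AOA effects. The counts moved by over 1.5 times without Mock 1 or 2 or AOA+Asp 1 in the first, without AOA 2 or HT-DNA+AOA 2 in the second, and in the third without Mock 3, AOA 2 or HT-DNA 3 (7 each) or HT-DNA+AOA 3 (20). The cause was not tested.

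The replicate numbers showed no clear pairing of the libraries. The median correlation of deviations was 0.01 for pairs with the same number and 0.01 for pairs with other numbers. Of 45 pairs with the same number, 7 had a correlation over 0.1 (range -0.11 to 0.28), and 9 of 18 libraries correlated best with their own number. With the replicate block, 4 members in place of 5 were called both for AOA+Asp against AOA and for HT-DNA+AOA against HT-DNA, Ifnar2 missing narrowly in each (adjusted p = 0.0522 and 0.0536), and no other member's call changed. For the levels, scaling by library totals was added once the values had been seen, and it kept the highest and lowest group of 7 of the 8 members. Socs1 is limited by its counts, and the HT-DNA+AOA group by the spread of its libraries.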
